A study of Homo sapiens with 6 samples.

Results

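The genes described here encode the proteins of the cytosolic ribosome. They were taken from the deposited gene table by name and biotype: protein-coding genes named RPL or RPS followed by a digit, RPLP followed by a digit, or RPSA, leaving out the RPS6K kinase genes and 2 genes on chromosome Y. The rule gave 89 of the 58735 genes in the table, and 19951 of the 58735 were protein-coding. The 89 genes comprised 43 of the large subunit, 31 of the small subunit, 3 of the P stalk, 8 paralogs, 3 readthrough genes that join a ribosomal protein gene to its neighbour, and RPS19BP1. RPS19BP1 has a matching name but encodes a protein that binds RPS19 and is not itself part of the ribosome.

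All libraries came from a human line of triple-negative breast cancer cells, MDA-MB-231, of wild-type (WT) genotype. Its cells were stained with PKH26, a membrane dye that is diluted as cells divide, grown for 12 days and sorted by fluorescence. Slow-cycling cells (SCC, labelled PKH26hi) were the 1% with the most dye. Rapid-cycling cells (RCC) had moderate dye according to the treatment protocol and low dye according to the sample characteristics. Each of the 2 groups had 3 biological replicates, so 6 libraries were compared, and both groups carried the dye and went through the sorter. The sort was by dye and not by a marker of the cell cycle, and 1 cell line was used.

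A human ribosome has a small subunit, which binds the mRNA and decodes it, and a large subunit, which joins amino acids and holds the exit tunnel for the new protein. Each subunit takes up 1 copy of most of its proteins, and the mRNAs of these proteins are abundant in dividing cells. Most of them start with a cytosine followed by an unbroken run of pyrimidines, the 5' terminal oligopyrimidine (TOP) motif. The protein LARP1 binds this start, and through it the kinase complex mTORC1 controls translation of these mRNAs as a group. RNA-seq measures mRNA level and not this translational control.

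The start of each gene is shown here because the TOP motif is the feature by which these mRNAs are regulated together. The windows cover 40 bases before and 20 bases from the annotated transcription start, read 5' to 3' from the RefSeq promoter table of GRCh38.p14. Capitals mark a run of a C and at least 4 further pyrimidines whose C lies within 5 bases of the annotated start. The genes listed are those at the ends of the range of SCC to RCC differences and some pairs of a gene and its paralog.
RPS29, chr14:49598691-49598750, minus strand: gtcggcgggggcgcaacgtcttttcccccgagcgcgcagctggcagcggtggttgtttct
RPL36A, chrX:101390971-101391030, plus strand: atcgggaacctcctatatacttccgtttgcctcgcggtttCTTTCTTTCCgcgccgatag
RPL26, chr17:8383174-8383233, minus strand: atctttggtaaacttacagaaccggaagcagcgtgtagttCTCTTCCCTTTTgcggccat
RPS21, chr20:62387063-62387122, plus strand: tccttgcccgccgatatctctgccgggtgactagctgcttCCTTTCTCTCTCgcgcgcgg
RPL13A, chr19:49487568-49487627, plus strand: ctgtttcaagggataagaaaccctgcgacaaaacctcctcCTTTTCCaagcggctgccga
RPS10, chr6:34426050-34426109, minus strand: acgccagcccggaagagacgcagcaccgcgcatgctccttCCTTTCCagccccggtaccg
RPL13, chr16:89560642-89560701, plus strand: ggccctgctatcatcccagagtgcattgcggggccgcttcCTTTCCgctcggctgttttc
RPS27, chr1:153990722-153990781, plus strand: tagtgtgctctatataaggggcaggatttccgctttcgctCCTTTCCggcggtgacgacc
RPS27L, chr15:63157458-63157517, minus strand: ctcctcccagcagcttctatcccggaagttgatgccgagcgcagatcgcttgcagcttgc
RPL26L1, chr5:172958689-172958748, plus strand: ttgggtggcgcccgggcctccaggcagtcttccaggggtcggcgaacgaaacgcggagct
RPL36AL, chr14:49620607-49620666, minus strand: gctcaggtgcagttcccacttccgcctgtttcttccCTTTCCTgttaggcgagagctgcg
RPL22, chr1:6199576-6199635, minus strand: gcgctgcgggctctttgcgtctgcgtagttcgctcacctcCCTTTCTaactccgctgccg
RPL22L1, chr3:170870176-170870235, minus strand: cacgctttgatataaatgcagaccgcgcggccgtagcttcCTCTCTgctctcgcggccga
RPL39, chrX:119791611-119791670, minus strand: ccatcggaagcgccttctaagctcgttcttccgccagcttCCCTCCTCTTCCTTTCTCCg
In this set RPS29, RPS27L and RPL26L1 held no such run within 5 bases of the annotated start. Of the 70 genes of the rule that were in the table, 56 (80%) held one, against 25.2% of all 27305 genes in the table. RPL39 had the run with the greatest length in the set, 19 bases. RPL26 and RPS21 each had 12 bases.

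Ribosomal protein genes took a smaller share of all counts in each SCC library than in each RCC library. The share was 5.31% (95% Wilson interval 5.30 to 5.32), 6.22% (6.21 to 6.23) and 6.13% (6.12 to 6.14) in SCC replicates 1 to 3. It was 6.31% (6.30 to 6.32), 6.65% (6.64 to 6.66) and 6.68% (6.66 to 6.69) in RCC replicates 1 to 3. The groups did not overlap, but SCC replicate 2 lay only just below RCC replicate 1, and SCC replicate 1 lay far below every other library. Means were 5.89% ± 0.50 in SCC and 6.55% ± 0.21 in RCC (SD, n = 3), a difference of -0.66 percentage points. A two-sided exact permutation test gave p = 0.1, the lowest value possible with 3 against 3 libraries, so this design could not reach 0.05. Without SCC replicate 1 the difference was -0.37 points (exact permutation p 0.2, the smallest for 2 against 3). Because the RNA is from bulk cells, fewer cells with a high level and less RNA per cell cannot be told apart. Genes of the mitochondrial genome took 4.45% to 4.75% of counts in SCC and 3.77% to 3.95% in RCC. With those counts left out of the total the difference in ribosomal protein share was -0.64 points.

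**Figure D1:**
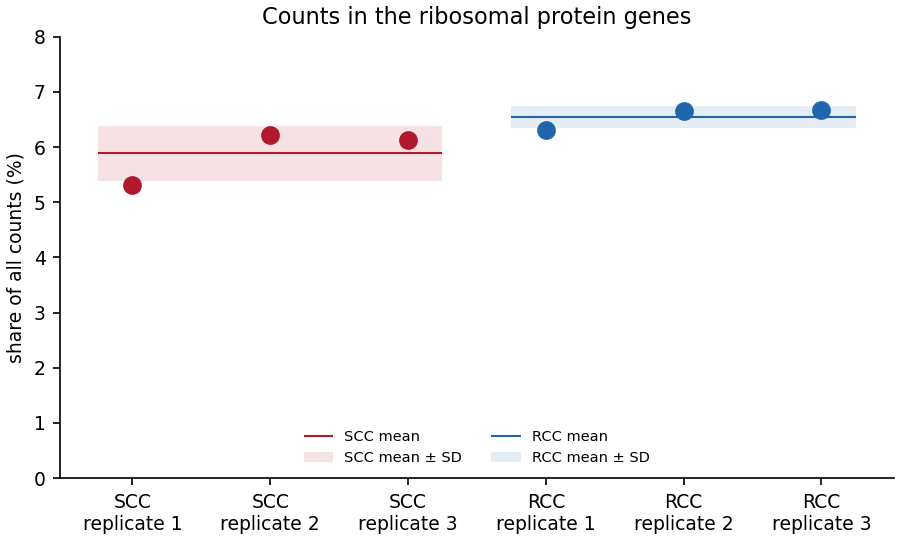
Share of all counts (%) taken by the 89 ribosomal protein genes in each library, with the group mean as a line and the mean ± SD as a band (n = 3). The 3 SCC points lie below the 3 RCC points, and SCC replicate 1, at 5.31%, is the lowest.

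The balance of counts between the subunits was also compared. Counts in large subunit and stalk genes were 1.85, 1.81 and 1.81 times those in small subunit genes in SCC replicates 1 to 3, and 1.78, 1.77 and 1.77 times in RCC replicates 1 to 3. Every SCC ratio was above every RCC ratio. The means were 1.82 ± 0.02 and 1.77 ± 0.01 (SD, n = 3), with an exact permutation p of 0.1, again the smallest possible, so a difference between subunits is not established. The median log2 fold changes by gene were -0.16 for large and -0.15 for small subunit genes. The small subunit genes took 1.84%, 2.18% and 2.15% of counts in SCC and 2.23%, 2.36% and 2.37% in RCC. The large subunit genes took 3.01%, 3.5% and 3.45% in SCC and 3.54%, 3.72% and 3.73% in RCC. Both subunits were thus lowest in SCC replicate 1.

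Gene by gene, 84 of the 89 passed the filter on low counts and were tested together with all other expressed genes. In edgeR's quasi-likelihood test with Benjamini-Hochberg adjustment over 15881 genes, 0 of the 84 were lower and 0 were higher in SCC at an adjusted p under 0.05. Over all tested genes 0.378% were lower and 1.69% higher. The smallest adjusted p among the 84 was 0.0656, for RPL36A. At an unadjusted p under 0.05, 31 of the 84 were lower and 0 higher, against 8.27% lower and 11.4% higher over all tested genes, and DESeq2 called 6 lower (1.07% of all genes) and 0 higher (3.02% of all genes). With all genes of at least 1 count in the test, 27 were lower (0.838% of all genes).

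The direction was shared by most of them. The fitted log2 fold change of SCC over RCC was below 0 in 74 of the 84 genes, against 49.5% of all tested genes. It ranged from -0.73 to 0.10, with a median of -0.15, where the median of all tested genes was 0.00. Levels below are CPM, in which counts are divided by a TMM-scaled library total so that libraries of different depth can be compared. All 3 SCC libraries lay below all 3 RCC libraries in 35 of the 84 genes, against 13.4% of all tested genes. They lay above in 1 gene, RPL13A, against 14.4% of all tested genes.

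**Figure D2:**
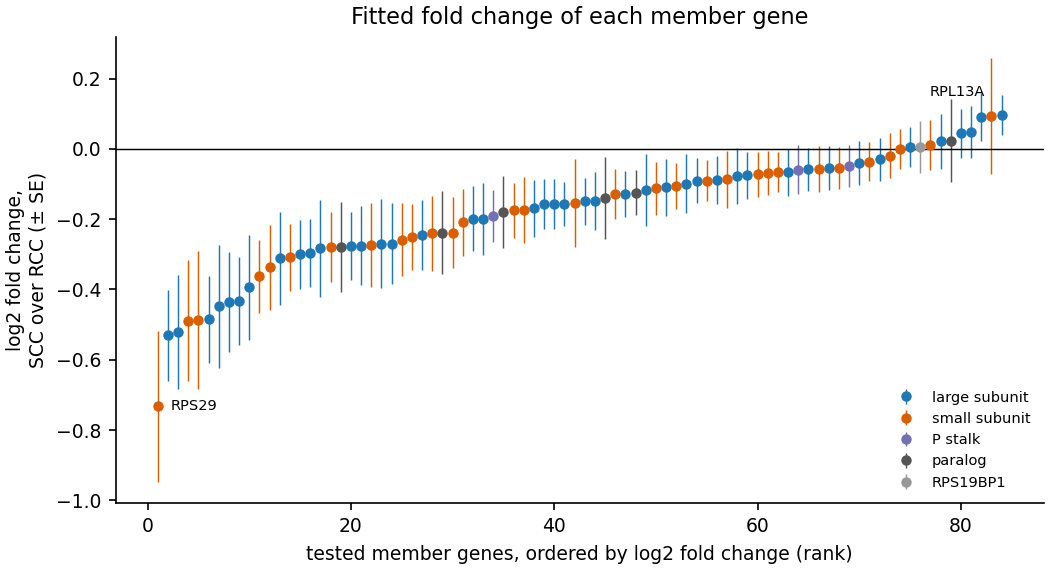
Fitted log2 fold change of SCC over RCC (bars, SE) for the 84 tested genes in order, coloured by subunit or kind. Values run from -0.73 for RPS29 to 0.10 for RPL13A, and 74 of the 84 lie below 0.

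The number of genes called lower turned on single libraries. SCC replicate 1 was the lowest of the 6 libraries in 65 of the 84 genes, against 29.5% of all tested genes. Without SCC replicate 1 the median log2 fold change was -0.08, and 73 of the 84 genes were below 0, against 74 with all 6 libraries. By the same test 15 of the 84 genes were then called lower, against 2.1% of all genes tested then. These were RPS29, RPL36A, RPL26, RPS21, RPS27, RPL38, RPL34, RPL37, RPL37A, RPL39, RPS26, RPS13, RPS7, RPL11 and RPL23. Without SCC replicate 2, 14 of the 84 were called lower (1.59% of all genes). Leaving out SCC replicate 3 or RCC replicate 1, 2 or 3 gave 0, where 0.116%, 0.0491%, 0.0851% and 0.0673% of all genes were lower. SCC replicates 2 and 3 by themselves both lay below all 3 RCC libraries in 35 of the 84 genes, against 17.9% of all tested genes.

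Relative to each gene's mean over the 6 libraries, the median of the 84 genes was -0.21 on the log2 scale in SCC replicate 1. It was 0.01 and -0.01 in SCC replicates 2 and 3, and 0.03, 0.12 and 0.09 in RCC replicates 1 to 3. SCC replicate 1 was also the library farthest from its own group over all genes. Comparing counts within groups, chi-square per degree of freedom was 28.0 against SCC replicate 2 and 21.0 against SCC replicate 3, and 3.31 to 4.30 for the other pairs within a group. The part of this in the members' values was not tested beyond the values without that library.

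**Figure D3:**
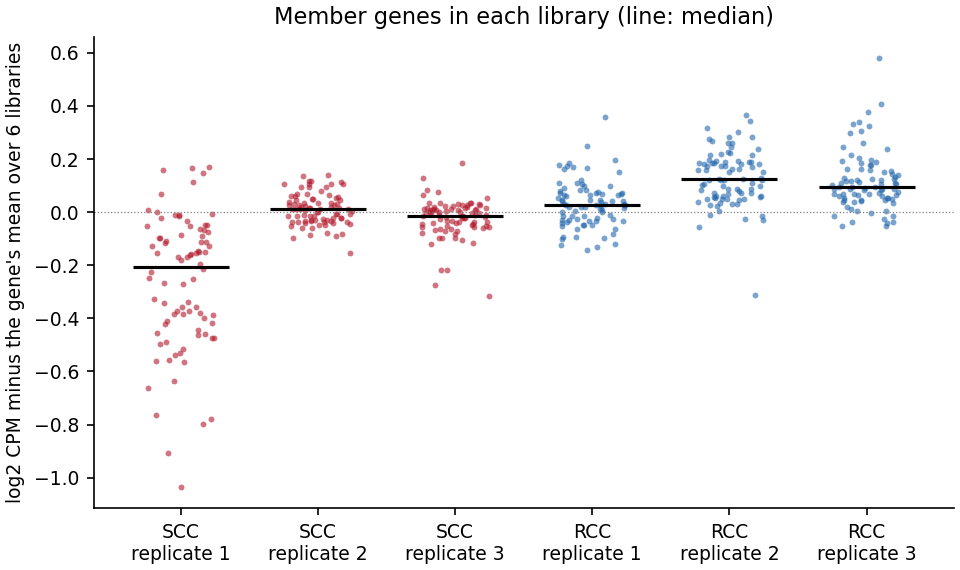
Each point is 1 of the 84 tested genes, as log2 CPM minus that gene's mean over the 6 libraries, with the median as a line. The spread is widest and the median lowest, at -0.21, in SCC replicate 1.

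Large subunit genes made up 43 of the 84. Of these, 37 had a log2 fold change below 0, with a median of -0.16, and 17 had an unadjusted p under 0.05, all lower. RPL36A (ENSG00000241343, chromosome X, 101390824 to 101396154), which encodes a protein at the exit site for transfer RNA, was at 10.5, 14.4 and 11.7 CPM in SCC and 18.7, 16.5 and 17.4 CPM in RCC. The groups did not overlap, and the log2 fold change was -0.53 (SE 0.13, edgeR adjusted p 0.0656, or 0.0210 without SCC replicate 1). RPL26 (ENSG00000161970, chromosome 17, 8377516 to 8383250) encodes a protein near the exit tunnel. It was at 46.8, 82.0 and 73.3 CPM in SCC and 90.4, 101 and 98.2 CPM in RCC. Every SCC value was below every RCC value, SCC replicate 1 by the widest margin, with a log2 fold change of -0.52 (SE 0.16, edgeR adjusted p 0.127).

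RPL38 (ENSG00000172809, chromosome 17, 74203582 to 74210655), named after its values were seen, is known from mouse work for its part in translating Hox mRNAs. It was at 247, 360 and 308 CPM in SCC and 374, 441 and 465 CPM in RCC, again with no overlap. Its log2 fold change was -0.49 (SE 0.12, edgeR adjusted p 0.0778). RPL5 and RPL11, the proteins that bind MDM2 together with the 5S RNA, were also picked for their role after their values were seen. RPL5 was at 1643, 1942 and 1889 CPM in SCC and 2032, 2093 and 1975 in RCC. RPL11 was at 439, 588 and 556 CPM in SCC and 621, 663 and 664 in RCC. In both genes all SCC values were below all RCC values, and neither was called (log2 fold changes -0.16 and -0.30, edgeR adjusted p 0.261 and 0.143).

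Of the 10 genes with a log2 fold change above 0, 6 were of the large subunit, which made up 43 of the 84 tested genes. RPL13A (ENSG00000142541, chromosome 19, 49487554 to 49492308), known also as a part of the GAIT complex that silences inflammatory mRNAs, was at 1851, 1778 and 1847 CPM in SCC and 1688, 1697 and 1733 CPM in RCC. The groups did not overlap, but the log2 fold change was only 0.10 (SE 0.06, edgeR adjusted p 0.354). RPL13 (ENSG00000167526, chromosome 16, 89560657 to 89566828) was at 1492, 1283 and 1286 CPM in SCC and 1255, 1302 and 1367 in RCC, with SCC replicate 1 alone above RCC. Its log2 fold change of 0.05 became -0.03 without that library, and with the GC offset the values of RPL13A and RPL13 were both below 0.

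Small subunit genes made up 31 of the 84. Of these, 29 had a log2 fold change below 0, with a median of -0.15, and 13 had an unadjusted p under 0.05, all lower. RPS29 (ENSG00000213741, chromosome 14, 49570984 to 49599164), a short zinc-binding protein of the head of the subunit, had the lowest value of all. It was at 208, 461 and 352 CPM in SCC and 508, 550 and 638 CPM in RCC. All SCC values were below all RCC values, with a log2 fold change of -0.73 (SE 0.21, edgeR adjusted p 0.110). With SCC replicate 1 left out, and 2 SCC libraries in the fit, the log2 fold change was -0.47 and the adjusted p 0.000279.

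RPS21 (ENSG00000171858, chromosome 20, 62387116 to 62388520) was at 159, 285 and 260 CPM in SCC and 293, 333 and 362 CPM in RCC. No SCC value reached an RCC value, though SCC replicate 2 lay close to RCC replicate 1. The log2 fold change was -0.49 (SE 0.17, edgeR adjusted p 0.165). RPS10 (ENSG00000124614, chromosome 6, 34417454 to 34426125), a protein that is ubiquitinated when ribosomes collide, was at 5.55, 6.69 and 7.01 CPM in SCC and 6.64, 4.96 and 6.36 CPM in RCC. The groups overlapped (log2 fold change 0.09, SE 0.16, edgeR adjusted p 0.769). RPS6, the substrate of the S6 kinases, was picked for its role after its values were seen. It was at 570, 655 and 629 CPM in SCC and 640, 692 and 695 CPM in RCC, with overlap (log2 fold change -0.13, edgeR adjusted p 0.331).

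The P stalk proteins RPLP0, RPLP1 and RPLP2 recruit the translation factors that use GTP. Their log2 fold changes were -0.05, -0.06 and -0.19. RPLP2 was at 625, 687 and 700 CPM in SCC and 702, 801 and 795 CPM in RCC, with no overlap (edgeR adjusted p 0.197). RPLP0 was at 2213, 2338 and 2395 CPM in SCC and 2329, 2435 and 2416 in RCC, with overlap. RPLP1 was at 1175, 1356 and 1314 CPM in SCC and 1278, 1357 and 1371 in RCC, also with overlap.

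Of the 8 paralogs, 6 passed the filter, 5 of them with a log2 fold change below 0 and a median of -0.16. The untested 2 were RPL3L, the form of striated muscle, at 0.05 to 0.24 CPM, and RPL10L, a testis form, with counts in 1 library only. In most pairs the partner that is a standard subunit had the lower log2 fold change. It was -0.49 for RPS27 and -0.28 for RPS27L. RPL26 was at -0.52 and RPL26L1 at -0.18, RPL22 at -0.31 and RPL22L1 at -0.14, RPL36A at -0.53 and RPL36AL at -0.24. The order was opposite only for RPL7 at -0.03 and RPL7L1 at -0.12. Differences within pairs were not tested.

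With all 6 libraries the pair with the most distant log2 fold changes was RPL39 and RPL39L. Without SCC replicate 1 these were -0.20 and -0.05, and RPL36A at -0.43 and RPL36AL at -0.09 lay farther apart. RPL39 (ENSG00000198918, chromosome X, 119786504 to 119791643) was at 244, 415 and 365 CPM in SCC and 429, 458 and 458 CPM in RCC, with no overlap. Its log2 fold change was -0.39 (SE 0.15, edgeR adjusted p 0.190). RPL39L (ENSG00000163923, chromosome 3, 187120948 to 187180908), best known from testis, was at 18.6, 18.0 and 14.4 CPM in SCC and 16.1, 17.8 and 16.4 CPM in RCC. Its groups overlapped, with a log2 fold change of 0.02 (SE 0.12, adjusted p 0.926) that was below 0 in 5 of the alternatives. RPS19BP1 was at 96.5, 94.7 and 97.8 CPM in SCC and 88.2, 99.4 and 100.5 in RCC (log2 fold change 0.01), and RPS19 had a log2 fold change of -0.05.

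The size of the difference followed the length of the coding sequence. The 84 genes are short, with a median coding length of 449 bases against 1419 in the other tested protein-coding genes. Across the 84, log2 fold change and coding length had a Spearman correlation of 0.54 and, on log2 length, a Pearson r of 0.53. The points share the same 6 libraries and are not independent. Without SCC replicate 1 the Spearman correlation was 0.52. The 11 genes of up to 300 coding bases had a median log2 fold change of -0.43, and the 31 genes above that and up to 450 bases one of -0.18. The 19 genes above 450 and up to 600 bases were at -0.16, the 21 genes above 600 and up to 1000 bases at -0.07, and the 2 genes above 1000 bases, RPL3 and RPL4, at -0.03.

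Other short protein-coding genes had medians nearer to 0. Their median log2 fold change was -0.10 for 263 genes of up to 300 bases, -0.05 for 552 genes above that and up to 450 bases, and -0.01 for 745 genes above 450 and up to 600 bases. Above 600 bases their medians were on the other side of 0, at 0.02 for 2322 genes of up to 1000 bases and 0.02 for 4877 genes above 1000 and up to 2000 bases. Without SCC replicate 1 the medians of the 2 shortest ranges were -0.05 and -0.02 in these other genes, and -0.23 and -0.10 in the ribosomal protein genes. In SCC replicate 1 the deviation from the 6-library mean was -0.56 for the ribosomal protein genes of up to 300 bases and -0.19 for other genes of that length. An offset for coding length, added after the data were seen, left a median of -0.13 over the 84 genes and 0 genes called lower, against 0.434% of all genes. The same offset without SCC replicate 1 left a median of -0.07 and 15 genes called lower, against 2.56% of all genes. The Spearman correlation of log2 fold change with coding length over the 84 genes was 0.31 after the offset on all 6 libraries. Log2 fold change also had a Spearman correlation of 0.40 with GC content, which was 0.27 without SCC replicate 1. With an offset for GC content the median was -0.17 and 7 genes were called lower (1.47% of all genes).

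**Figure D4:**
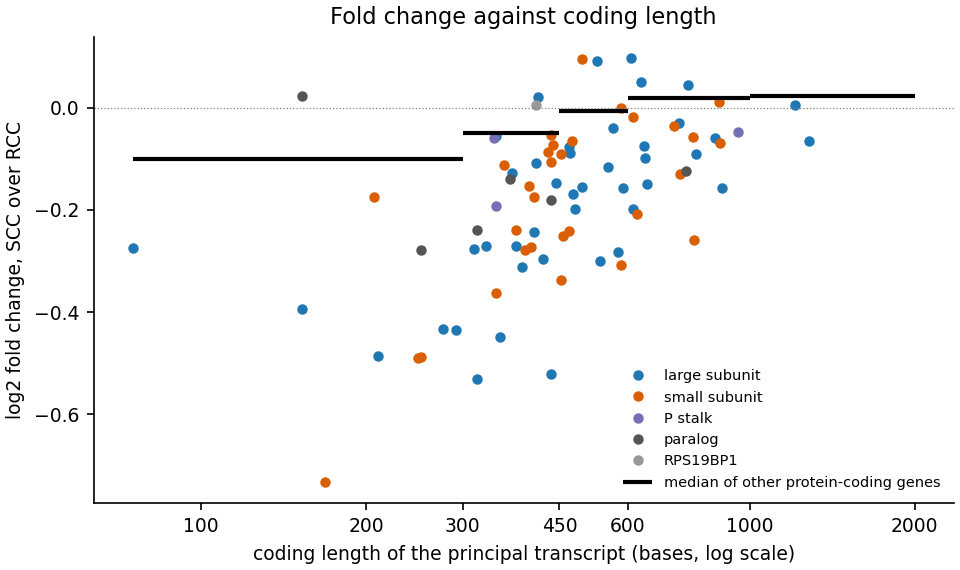
Log2 fold change of SCC over RCC against coding length in bases (log scale) for the 84 tested genes. Black bars are the median of other protein-coding genes in the same length ranges: the shortest ribosomal protein genes reach -0.73, where the bar is at -0.10.

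Deposited levels per length (FPKM) spread widely, although the ribosome takes up 1 copy of most of these proteins. RPS12 had the highest mean FPKM over the 6 libraries, 954 ± 137 (SD, n = 6), followed by RPS2 at 919 ± 50.6 and RPL41, the shortest of the proteins, at 767 ± 120. The gap between RPS12 and RPS2 was smaller than their spread over the libraries, and the order differed by group. In SCC, RPS2 was at 920 ± 60.1 and RPS12 at 901 ± 192 FPKM (SD, n = 3), and RPL41 at 692 ± 121 was below RPL8 and RPL13A, at 767 ± 40.6 and 766 ± 15.7. In RCC the order was RPS12 at 1006 ± 43.0, RPS2 at 917 ± 52.8 and RPL41 at 841 ± 66.1 FPKM (SD, n = 3). At the other end, RPS10 was at 2.62 ± 0.33, RPL36A at 3.74 ± 0.83 and the paralog RPS27L at 5.78 ± 0.94. In the highest 3, log2 fold changes were -0.15 for RPS12, 0.01 for RPS2 and -0.27 for RPL41, and none was called. RPS12 was at 528, 788 and 767 CPM in SCC and 739, 793 and 785 CPM in RCC. Only SCC replicate 1 stood apart there, and without it the log2 fold change of RPS12 was 0.01.

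The low levels went with overlapping annotation. Over 50% of the coding bases lay inside exons of another annotated gene in 9 of the 77 standard subunit and stalk genes. The 7 genes with the lowest FPKM of the 77 were all among these 9. They included RPS10, at 92.1% shared, RPL36A at 94.3%, RPL17 at 100% (10.6 FPKM), RPS15A at 54.6% (15.6 FPKM), RPL26 at 71.0% (32.5 FPKM) and RPL22 at 59.9% (32.8 FPKM). In all 7 a gene on the same strand was involved, among them the readthrough gene RPS10-NUDT3 over RPS10, RPL36A-HNRNPH2 over RPL36A and RPL17-C18orf32 over RPL17. The other 2 of the 9, RPS23 and RPL30, overlap genes on the opposite strand and were at 87.7 and 110.3 FPKM. The remaining 68 genes ranged from 45.9 FPKM for RPS29 to 954, with a median of 232.

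The readthrough genes themselves held almost no counts, at most 0.10 CPM in any library. By default featureCounts gives no count to a read that overlaps exons of more than 1 gene. The setting used here was not given in the sources used here, and its part in these levels was not tested. The levels of the 9 genes are therefore uncertain, RPL36A and RPL26 included. Of all exon bases 8.4% were shared in RPL36A and 14.3% in RPL26, against 94.3% and 71.0% of their coding bases. Which part of each gene the counted reads came from was not tested, so the differences of these genes are uncertain too. FPKM also divides by the length of all annotated exons. For RPS29 that length was 9845 bases, against a coding length of 168.

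**Figure D5:**
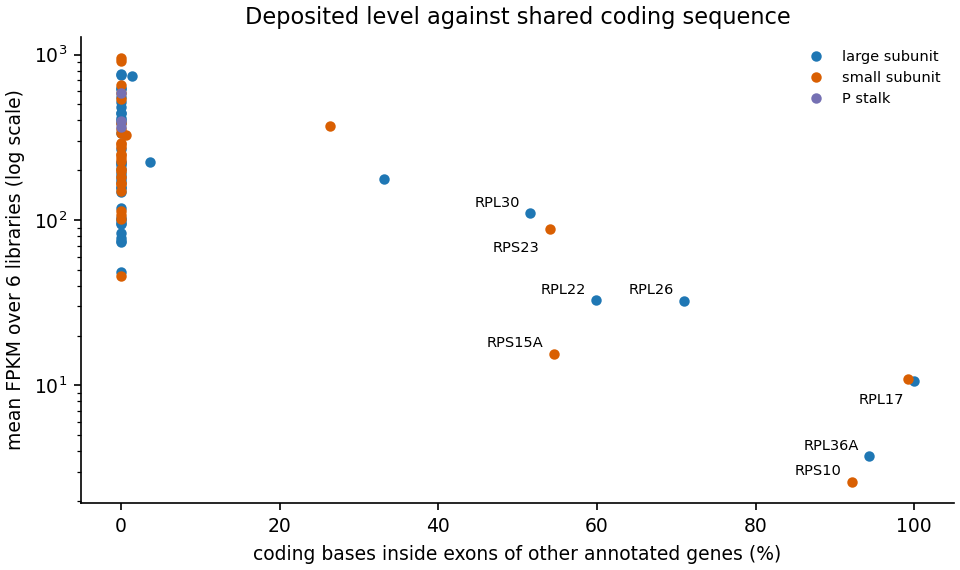
Mean deposited FPKM over 6 libraries (log scale) against the percent of coding bases inside exons of other annotated genes, for the 77 standard genes. The 7 genes with the lowest FPKM all have over 50% of their coding bases shared.

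Ribosomal protein genes have many processed pseudogenes, copies of the mRNA in the genome that can take up reads. The table held 1144 pseudogene rows named after 77 of the 89 genes, of which 555 had any count. Their summed counts were 3.37%, 3.49% and 3.39% of those of the genes themselves in SCC replicates 1 to 3, and 3.45%, 3.40% and 3.36% in RCC replicates 1 to 3. The groups overlapped (difference 0.02 points, exact permutation p 0.7). RPL9 stood out, with pseudogene counts at 131% of its own, most of them in RPL9P9. RPS10 followed at 87.4% and RPS28 at 68.2%. With these counts added back to their parents the log2 fold change was -0.22 for RPL9, against -0.28 without them, -0.05 for RPS10 and -0.21 for RPS28.

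Among the pseudogenes 79 were tested, 60 of them with a log2 fold change below 0, against 49.5% of all tested genes. Their median was -0.26, where that of all tested genes was 0.00. RPL13AP5 was called higher (log2 fold change 0.39) and RPSAP52 lower (-0.54), by edgeR with adjusted p of 0.045 and 0.046. That is 1 of 79 in each direction, against 1.69% higher and 0.378% lower over all tested genes. RPL13AP5 is a copy of RPL13A, the gene that lay highest among the 84. Reads of a near-identical copy and its parent can be mistaken for each other, so these rows are uncertain.

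Of the 84 tested genes, 28 carry snoRNA genes, which guide modification of ribosomal RNA, inside them. Their median log2 fold change was -0.11, against -0.17 for the 56 without. By transcription start, the 55 tested genes with a pyrimidine run had a median log2 fold change of -0.16, and 50 of them were below 0. The 12 without a run whose C lay within 5 bases of the annotated start had a median of -0.15, and all 12 were below 0. These were RPS29, RPS26, RPL9, RPS27L, RPL15, RPL26L1, RPL7L1, RPL17, RPL27, RPS15, RPL6 and RPS4X. The medians by start lay close together, and RPS29, with the lowest value of all, had no run at its annotated start. RPS26, RPL9, RPS15 and RPL27 had such a run farther than 5 bases downstream, so this split may not separate TOP mRNAs from others.

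Other motifs were counted in the 300 bases from 250 before to 50 after the start, on both strands. ACTTCCG, the core letters of an ETS site, was in 23 of the 70 genes (32.9%) and in 8.18% of all genes in the table. GCCATCTT, letters of a YY1 site, was in 7 (10%) against 3.52%. The E-box CACGTG, which MYC can bind, was in 5 (7.14%) against 8.77%, and TATAAA in 8 (11.4%) against 14%. These are matches of letters and were not tested for binding.

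The remaining ribosomal proteins and the machinery around them were described from 5 lists. FAU encodes a fusion of a ubiquitin-like part with a ribosomal protein, and RACK1 is a scaffold on the small subunit. FAU was at 264, 293 and 315 CPM in SCC and 287, 333 and 353 in RCC, with overlap (log2 fold change -0.16, edgeR adjusted p 0.344). RACK1 was at 2032, 1846 and 1818 CPM against 1870, 1921 and 1940 (log2 fold change -0.01), and its sign was opposite without SCC replicate 3.

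Elongation factors and other genes with TOP mRNAs were measured for 14 of 15 list members. None was called in either direction by edgeR, 1 had an unadjusted p under 0.05 and lay lower, and the median log2 fold change was -0.06. EEF1G was listed at 0 in all 6 libraries. Among 60 ribosome assembly factors 0 were called, 10 had an unadjusted p under 0.05, all lower, and 45 had a log2 fold change below 0, with a median of -0.08. Without SCC replicate 1, 5 assembly factors were called lower (GAR1, GNL3, POLR1E, HEATR1 and MDN1) and 1, EFL1, higher, against 2.1% lower and 3.93% higher over all genes tested then. GAR1 and POLR1E act in ribosomal RNA modification and its synthesis by RNA polymerase I, and EFL1 in release of EIF6 from the new large subunit. Among 10 chaperones of ribosomal proteins 0 were called, 3 had an unadjusted p under 0.05, all lower, and the median was -0.10. The lists overlap: NAP1L1, 1 of these 3, was also the gene of the TOP list that lay lower at that p. RPS19BP1 was in the chaperone list and is also a gene of the rule. Of all tested genes, 8.27% were lower and 11.4% higher at an unadjusted edgeR p under 0.05. By adjusted p 0.378% were called lower and 1.69% higher, and 49.5% had a log2 fold change below 0.

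The last list, of 18 genes, covered mTORC1, LARP1, their regulators, genes that act downstream of mTORC1 in translation, and MYC. It held 2 genes called higher and 0 called lower, and 6 of the 18 had a log2 fold change below 0. Over all tested genes 1.69% were called higher, 0.378% lower, and 49.5% were below 0. DDIT4 (ENSG00000168209, chromosome 10, 72273920 to 72276036), a stress-induced inhibitor of mTORC1, was at 29.5, 22.4 and 24.4 CPM in SCC and 13.1, 13.9 and 13.1 CPM in RCC. The groups were well apart, with a log2 fold change of 0.93 (SE 0.12, edgeR adjusted p 0.0017). SESN2 (ENSG00000130766, chromosome 1, 28259527 to 28282491), a leucine sensor that also inhibits mTORC1, was at 21.4, 17.2 and 14.0 CPM in SCC and 8.24, 7.78 and 7.20 CPM in RCC. It too was higher in each SCC library, with a log2 fold change of 1.18 (SE 0.16, edgeR adjusted p 0.0023). MTOR itself had a log2 fold change of 0.10 and LARP1 one of 0.08, neither called. The list's median was 0.12, and 0.02 without SCC replicate 1. Without that library MYC was called higher as well (log2 fold change 0.19, edgeR adjusted p 0.0193), as were 3.93% of all genes. With all 6 libraries its log2 fold change was 0.27 (edgeR adjusted p 0.105).

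Markers of the cell line were checked in the same libraries. VIM, CD44, EGFR, AXL and CAV1, known to be high in this mesenchymal line, summed to 3405 to 3502 CPM in SCC and 3330 to 3483 CPM in RCC, and ESR1, PGR, CDH1 and EPCAM to 4.19 to 5.67 and 4.86 to 6.31 CPM. Leukocyte markers (PTPRC, CD3E, CD14 and LYZ) summed to 0.61 to 3.0 CPM in SCC and 0.39 to 0.84 in RCC. The value of 3.0 was that of SCC replicate 1, where PTPRC was at 1.96 CPM. CD3E was at 0.04 CPM in SCC replicate 1 and at 0 in every other library. Endothelial markers (PECAM1 and CDH5) summed to 3.13 to 3.33 and 2.43 to 3.46 CPM, and fibroblast markers (COL1A1, COL3A1, PDGFRA and DCN) to 12.0 to 16.3 and 8.83 to 11.8 CPM, nearly all COL1A1. The part of these in the members' values was not tested.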

How the data were processed

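TRIzol was used to extract RNA and a NEBNext Ultra kit to make libraries, per the labels' protocols. Per the submitters' processing notes the tools were HISAT2 2.0.5 and featureCounts 1.5.0-p3. The authors deposited counts per gene (whole numbers, not normalized), FPKM per gene, and a gene length. The deposited FPKM equalled count over length and 1 constant per library, within 0.1%. The genome build, filters and use of strand were not given in the sources used here. All 58735 rows had the position of a gene in GENCODE release 29 (GRCh38), whose coordinates are printed.

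Summed counts were 19498054 to 27831824 in SCC and 17655855 to 22746267 in RCC. Wilson intervals (95%) cover counting error only. The gene test used edgeR 4.0.16 (R 4.3.3): filterByExpr by group with its minimum count set to 10, TMM scaling, glmQLFit on group alone, two-sided F test, Benjamini-Hochberg adjustment over 15881 genes, adjusted p under 0.05 called. Standard errors are the fold change over the square root of F. The test was first tried on simulated counts. Shares were compared by two-sided exact permutation tests.

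Alternatives were DESeq2 1.42.0, limma 3.58.1 on log2(FPKM + 1) and log2(FPKM + 0.1), RLE, upper-quartile and count-sum scaling, TMM factors without these genes, other filters, pseudogene rows added, offsets for GC content, gene length and coding length (lowess, span 0.3), a block for the replicate number, and leaving out each library. Named members were the 4 highest and 4 lowest log2 fold changes, the 3 highest and 3 lowest mean FPKM, called genes, and paralogs with their partners. Outside the members these were FAU, RACK1 and up to 4 called genes of each list. Any other gene was named after its values were seen. Some genes within these rules and lists are not reported here. The members and lists were chosen with earlier results of these data known. Motifs were counted in the RefSeq promoter table of GRCh38.p14.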

Additional observations from a re-analysis of the deposited data

How the results depend on the processing

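Calls lower in SCC depended on the processing, and 0 genes were called higher in the main test or in any of the 23 alternatives. Against 0 lower in the main test, 27 were lower with all genes of at least 1 count tested, 6 with DESeq2, 7 with the GC offset, and 15 with the coding length offset without SCC replicate 1, an alternative chosen after seeing the data. Across the fits that each left out 1 library the count ranged from 0 to 15. The other alternatives, apart from the replicate block, gave 0. The cause was not tested. RPL26, RPS26, RPL37A and RPL38 were called in 8 alternatives each. The median log2 fold change was below 0 in all 23, from -0.20 (without SCC replicate 2) to -0.07 (coding length offset without SCC replicate 1). The difference in share ranged from -0.82 points (without SCC replicate 2) to -0.37 (without SCC replicate 1), and was -0.97 for summed FPKM.

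The replicate numbers were not said to mark a shared batch, so they were treated as labels only and not as a pairing. Deviations of same-numbered replicates from their group means had correlations of -0.01, 0.02 and -0.08 over all tested genes. With 3 libraries in a group these values cannot decide on a pairing. With the replicate block 13 genes were called lower (0.667% of all genes), and with the block and the GC offset 37 (2.68%).

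A tally covered 31 of the named genes and 23 alternatives (713 values). It left out RPL5, RPL11, RPS6, the P stalk genes and MYC, among others. Of the 713 values, 591 kept direction and side of the threshold and 81 passed it anew. A further 2 missed it (DDIT4 and SESN2 with limma without a filter, adjusted p 0.0742 and 0.145) and 39 had the opposite sign. With the GC offset, RPL13 was at -0.061, RPL13A at -0.0039, RPL7 at 0.016, RPS19BP1 at -0.083 and RPS2 at -0.14. With the block and the GC offset, RPL13 was at -0.061, RPL13A at -0.0059, RPL7 at 0.015, RPS19BP1 at -0.082 and RPS2 at -0.14. With the coding length offset without SCC replicate 1, RPL13 was at -0.033, RPL22L1 at 0.032, RPL41 at 0.0024, RPS12 at 0.030 and RPS2 at -0.055. RPL39L was at -0.0036 with summed counts. RPS10 was at -0.054 with pseudogene rows added. RPS19BP1 was at -0.00026 with RLE, -0.012 with upper-quartile scaling, -0.021 with summed counts, -0.00015 with DESeq2 and -0.019 with the length offset. RPS2 was at -0.0066 with upper-quartile scaling, -0.016 with summed counts, -0.016 with the length offset and -0.0059 with the coding length offset. Signs also differed between fits that each left out 1 library for RACK1 (-0.060 to 0.011), RPL13 (-0.026 to 0.074), RPL22L1 (-0.26 to 0.0071), RPL39L (-0.050 to 0.12), RPS10 (-0.030 to 0.19), RPS12 (-0.27 to 0.0099), RPS19BP1 (-0.062 to 0.031) and RPS2 (-0.045 to 0.042). The design could not reach an exact p under 0.1, and the low levels of genes that share coding bases limit their precision.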
